A study of Homo sapiens with 6 samples.

Results

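Antisense long noncoding RNAs are transcribed from the DNA strand opposite to a neighbouring gene and are named after it, so that HIF1A-AS2 is an antisense RNA of HIF1A. The antisense RNAs described here are the rows of the expression table whose symbol ends in -AS and a number, whose sense gene (the symbol before -AS) is also listed, and whose mean signal over all 6 samples was at least 50. EPB41L4A-AS1 was left out. This rule gave 192 antisense RNAs of 38637 genes, out of 1496 rows with such a name and 1477 with a listed sense gene. They belong to 190 sense genes, since HIF1A and PTOV1 have 2 antisense RNAs each. The members were chosen by their mean signal, so their levels are a description. Their changes with treatment were not ranked for the choice, but the mean covers both groups. Some members therefore reached it only through the group where they were higher. RBM5-AS1, for example, had a mean of 83.6 in DMSO and 28.7 with plaB, and DNMBP-AS1 one of 40.5 and 71.0.

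Gene expression was measured by poly(A) RNA sequencing in OVCAR8, an established human ovarian cancer cell line of wild type genotype, in 3 samples treated with DMSO, the solvent, and 3 samples treated with 2 nM pladienolide B (plaB) for 72 h. PlaB binds SF3B1, a subunit of the SF3b complex that recognises the intron branch site, and inhibits splicing. Both groups come from 1 cell line, and the labels do not say whether the samples were separate cultures, so p-values measure the spread between these samples, which may be technical. The signal is the number of reads on a gene adjusted for library size, and it also depends on the length of the gene.

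Antisense RNAs can share a promoter region with the sense gene and run away from it, can start inside the gene, or can run towards it and meet its end. Many are spliced and polyadenylated, and many are kept at low levels because the nuclear exosome and its adaptors degrade unstable noncoding transcripts. Some act on the sense gene through chromatin or by base pairing, and for many no function is known.

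The recovered reads on genes were 22621338 to 26130882 per sample. DMSO replicate 2 stood apart from the other DMSO samples, with a chi-square per degree of freedom of 7.34 and 7.25 against them, where the other pairs of replicates had 2.01 to 4.82. SF3B1, the gene of the plaB target, was itself higher with plaB, with a log2 fold change of 0.31 (SE 0.0401). The epithelial and Mullerian genes EPCAM, KRT7, KRT8, KRT18 and PAX8 were present in every sample, with EPCAM at 431 to 513, KRT8 at 40100 to 53000 and PAX8 at 4010 to 4580. KRT19 (8.02 to 24.8) and WT1 (13 to 33.8) were low. The leukocyte gene PTPRC and the fibroblast gene DCN did not exceed 2.07, and the endothelial gene CDH5 did not exceed 4.24.

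The promoter windows of some antisense RNAs are printed first, as examples of different contrasts and not as the firmest ones. NKX2-1-AS1 fell together with its sense gene, PPP3CB-AS1 fell by more than its sense gene, TMEM147-AS1 rose while its sense gene fell, and the antisense RNAs of HIF1A moved in opposite directions to each other. The windows are RefSeq sequences of GRCh38.p14, read 5′ to 3′ on the strand of the antisense RNA, and they were chosen after the values were seen. Capitals mark the 50 bases from the annotated start of the antisense RNA onwards, and the 250 bases before it are in lower case.
NKX2-1-AS1: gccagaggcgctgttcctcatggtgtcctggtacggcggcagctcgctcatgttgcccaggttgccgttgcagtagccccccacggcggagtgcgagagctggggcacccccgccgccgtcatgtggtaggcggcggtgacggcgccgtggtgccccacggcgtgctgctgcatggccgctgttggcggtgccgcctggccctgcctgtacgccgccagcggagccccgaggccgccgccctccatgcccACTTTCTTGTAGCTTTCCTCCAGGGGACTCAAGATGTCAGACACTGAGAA
PPP3CB-AS1: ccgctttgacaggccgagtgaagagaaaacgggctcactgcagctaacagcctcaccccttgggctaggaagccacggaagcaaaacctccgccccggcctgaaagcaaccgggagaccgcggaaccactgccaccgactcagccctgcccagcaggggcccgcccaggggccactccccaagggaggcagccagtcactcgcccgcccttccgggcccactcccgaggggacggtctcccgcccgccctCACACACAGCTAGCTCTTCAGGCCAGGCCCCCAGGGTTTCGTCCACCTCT
TMEM147-AS1: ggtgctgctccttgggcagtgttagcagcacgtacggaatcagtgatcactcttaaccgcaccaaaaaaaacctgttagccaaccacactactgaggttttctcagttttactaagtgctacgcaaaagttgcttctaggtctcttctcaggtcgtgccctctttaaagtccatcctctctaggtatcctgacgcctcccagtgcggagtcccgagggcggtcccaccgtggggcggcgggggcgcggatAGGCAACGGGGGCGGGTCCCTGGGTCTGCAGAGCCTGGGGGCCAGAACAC
HIF1A-AS2: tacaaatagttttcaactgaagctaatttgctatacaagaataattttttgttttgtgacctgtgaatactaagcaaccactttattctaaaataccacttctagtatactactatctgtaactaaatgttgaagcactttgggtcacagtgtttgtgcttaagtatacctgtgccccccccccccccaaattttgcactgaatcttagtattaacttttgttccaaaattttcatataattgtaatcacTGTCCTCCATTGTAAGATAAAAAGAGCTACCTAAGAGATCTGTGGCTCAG
HIF1A-AS3: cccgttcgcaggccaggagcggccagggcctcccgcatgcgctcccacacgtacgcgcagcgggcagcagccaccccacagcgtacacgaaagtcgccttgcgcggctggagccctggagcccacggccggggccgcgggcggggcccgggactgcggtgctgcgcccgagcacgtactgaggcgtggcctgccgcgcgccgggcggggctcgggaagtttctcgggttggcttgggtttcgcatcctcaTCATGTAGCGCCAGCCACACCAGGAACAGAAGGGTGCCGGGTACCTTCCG

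The NKX2-1-AS1 window lies at chr14:36519028-36519327 on the plus strand, inside a coding exon of NKX2-1 in GENCODE. PPP3CB-AS1 has its window at chr10:73495502-73495801 on the plus strand, and TMEM147-AS1 at chr19:35545980-35546279 on the minus strand. Both windows of the HIF1A locus are on the minus strand, at chr14:61749040-61749339 for HIF1A-AS2 and at chr14:61751048-61751347 for HIF1A-AS3. These neighbouring starts differed in composition. The HIF1A-AS3 window was 72.3% G or C with 36 CpG sites, and the HIF1A-AS2 window was 34.7% G or C with 0 CpG sites. The motif GGGCGG, searched on both strands with overlapping sites counted, occurred 5 times in the PPP3CB-AS1 window, 3 times in the TMEM147-AS1 window, 2 times in the HIF1A-AS3 window and 1 time in the NKX2-1-AS1 window.

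RefSeq windows were found for 144 of the 192 antisense RNAs and for 162 of the 190 sense genes, with both found for 128 pairs. The median G or C content was 64% for antisense RNAs, 67.2% for sense genes and 58.3% for all 27305 promoters, and the median number of CpG sites was 23, 26 and 14. GGGCGG on either strand was held by 56.2% of the antisense windows, 67.9% of the sense windows and 44.6% of all windows. TATAAA was held by 6.25%, 6.79% and 12%, CCAAT by 31.2%, 35.8% and 35.7%, and ACGTG by 27.8%, 21% and 21.6%. No motif searched contains another of them.

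On the genome, the pairs were arranged in several ways, as the positions in the table give them. In 70 pairs the spans overlapped at their starts, in 51 at their ends, in 36 the antisense RNA lay inside the sense gene, and in 10 the sense gene lay inside the antisense RNA. In 22 pairs the starts faced away from each other without overlap, and in 3 the ends faced each other without overlap. The starts lay within 1000 bases in 60 pairs. All 192 pairs were on opposite strands.

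The antisense RNAs had a median signal of 125 over all samples, with 76 members under 100 and 10 over 1000. Per kilobase of exon in GENCODE, the median level was 47.6 for the antisense RNAs and 168 for the sense genes, and the antisense level was the higher in 49 of 183 pairs with matched exons. VIM-AS1, antisense to the gene of the intermediate filament vimentin, had the highest mean of all members (15810), followed by MIF-AS1 (8679), FGD5-AS1 (3920), AFAP1-AS1 (3273) and OIP5-AS1 (1989). Just inside the minimum mean lay DLGAP1-AS2 (50.1), JMJD1C-AS1 (50.8) and C10orf95-AS1 (51.0), and just outside lay HMGN3-AS1 (49.4), UBAC2-AS1 (49.1) and ZNF528-AS1 (49.0).

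The sources used here do not give how reads were counted by strand, and reads of exonic bases that both genes of a pair share could then be counted for either. TALAM1, antisense to MALAT1 and no member, is a measure of this that was chosen after its values were seen. It shares 88.7% of its exonic bases with MALAT1, and its signal was 0.935 to 0.943 times that of MALAT1 in the 6 samples. For each pair, the signal that the shared exonic bases would hold at the mean density of the sense gene was set beside the antisense signal. Of 183 pairs with matched exons, 133 shared exonic bases. In 68 of these the shared bases would hold 0.5 or more of the antisense signal, and in 46 they would hold at least as much as was measured. The measure covers exonic bases only. Reads of unspliced sense RNA over its introns were not estimated, so a pair without shared exonic bases could still share reads. The part of shared reads in the changes of the pairs was not tested. Where exons were matched, the value is given beside each pair whose changes are described.

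**Figure D1:**
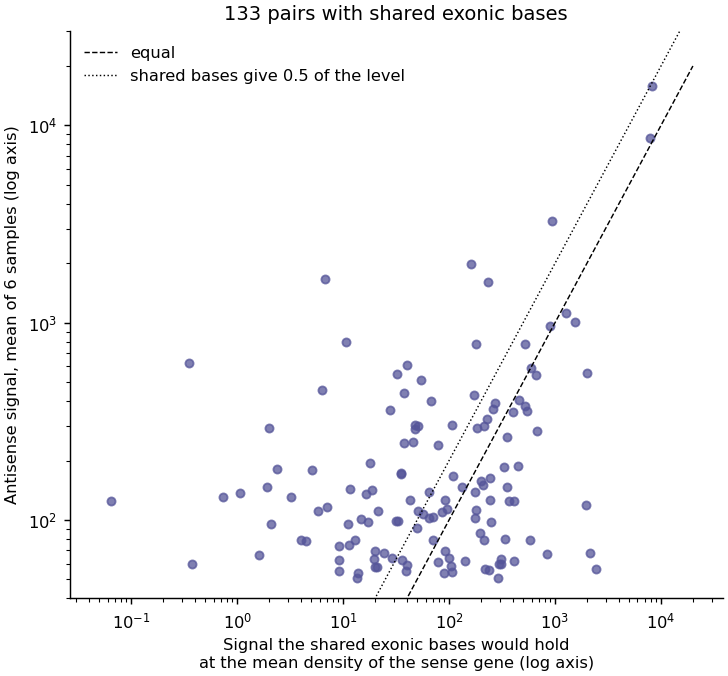
Mean antisense signal over 6 samples (vertical, log axis) against the signal that the exonic bases shared with the sense gene would hold at the sense gene's mean density (horizontal, log axis), 1 point for each of the 133 pairs with shared exonic bases. The dashed line marks equal values and the dotted line 0.5 of the antisense signal, and 68 points lie on or to the right of the dotted line.

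With plaB, 42 of the 192 antisense RNAs fell, 27 rose and 123 did not pass the test. A gene was called when its adjusted p was below 0.05 in limma on log2(signal + 1) over 16178 genes, and all 192 antisense RNAs passed the filter on low values. The called share was 35.9%, against 47.6% of all genes tested, 53.8% of genes with a mean of at least 50 and 45.1% of the 497 other lncRNAs with such a mean. By direction, 14.1% were higher and 21.9% lower, against 24.9% and 28.9% of genes with a mean of at least 50 and 16.5% and 28.6% of the other lncRNAs. In bulk RNA, a change in every cell and a change in some of the cells cannot be told apart. Only NKX2-1-AS1 and RBM5-AS1 changed at least 2-fold among the called members, and 20 (10.4%) changed at least 1.5-fold, 14 lower and 6 higher, beside 3.93% and 11.5% of all genes. The DMSO and plaB samples did not overlap for 95 members (49.5%), against 55.3% of all genes and 60.6% of genes with a mean of at least 50. The median log2 fold change was -0.058 over the members and -0.061 over the other lncRNAs, against -0.0097 over genes with a mean of at least 50.

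The called share was higher among the more abundant antisense RNAs. It was 23.7% of the 76 members with a mean under 100, 34.3% of the 70 with a mean of 100 to 300 and 58.7% of the 46 above 300. The median standard error of the log2 fold change was 0.147 for the members and 0.0685 for genes with a mean of at least 50.

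The 8 largest falls were in RBM5-AS1, NKX2-1-AS1, PPP3CB-AS1, HIF1A-AS3, RNF213-AS1, RAB11B-AS1, PTPRG-AS1 and DHRS4-AS1, with log2 fold changes of -1.53 to -0.76. The 8 largest rises were in KIF9-AS1, BCAN-AS1, TMEM147-AS1, DNMBP-AS1, HIF1A-AS2, HERPUD2-AS1, LBX2-AS1 and PTOV1-AS2, with log2 fold changes of 0.57 to 0.99. In all 16 the DMSO and plaB samples did not overlap, beside 49.5% of all members and 60.6% of genes with a mean of at least 50. Choosing large called changes favours such a separation.

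**Figure D2:**
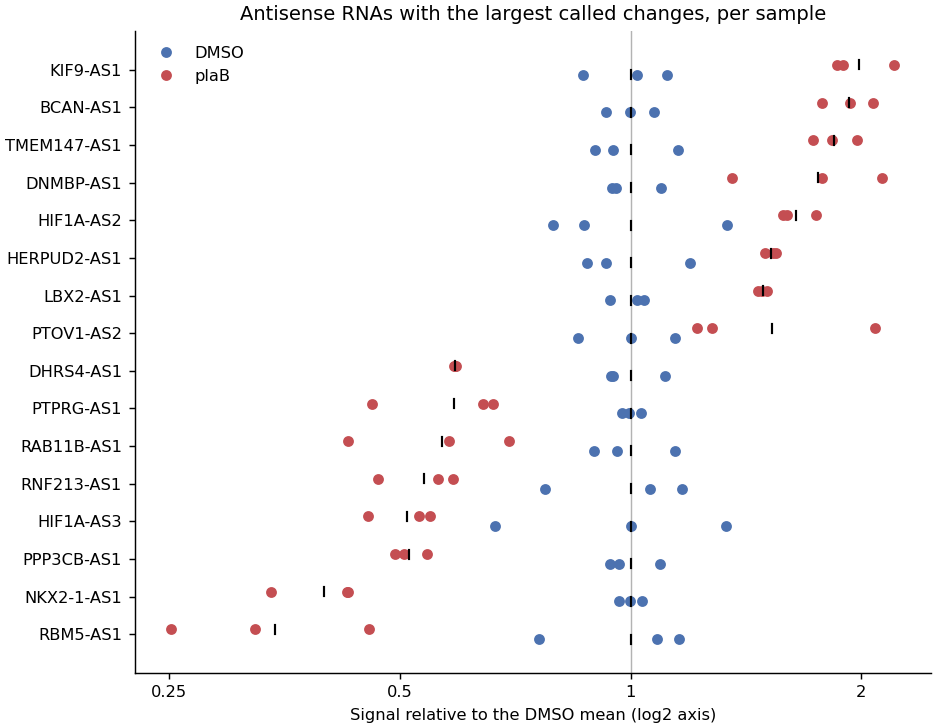
Signal of the 16 antisense RNAs with the largest called rises and falls, relative to the mean of the DMSO samples (horizontal, log2 axis), 1 point for each sample and a vertical bar for each group mean. RBM5-AS1 has the lowest plaB mean and KIF9-AS1 the highest, and no plaB point of an RNA lies among its DMSO points.

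RBM5-AS1, antisense to the gene of the splicing regulator RBM5, lies inside it at chr3:50099603-50100988 on the minus strand. Its signal was 90.5, 63.6 and 96.7 in DMSO and 21.0, 38.1 and 27.1 with plaB, a log2 fold change of -1.53 (SE 0.244, adjusted p = 6.93e-05). Every plaB sample lay below every DMSO sample. RBM5 fell by less, from 2577, 2567 and 2550 to 1904, 1932 and 1837 (log2 fold change -0.44, SE 0.0448, adjusted p = 5.29e-07). RBM5-AS1 was 2.48% to 3.79% of RBM5 in DMSO and 1.1% to 1.97% with plaB (ratio change -1.09, SE 0.259, adjusted p = 0.0383). The call of this ratio was lost without DMSO replicate 1, DMSO replicate 3, plaB replicate 1 or plaB replicate 3 (adjusted p = 0.0849 to 0.11). RBM5-AS1 shares 72.7% of its exonic bases with RBM5, and these would hold 3.86 times its measured signal at the RBM5 density.

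NKX2-1-AS1 starts 954 bases inside NKX2-1, the gene of a homeodomain transcription factor of lung and thyroid, at chr14:36519278-36523016. Its signal was 225, 233 and 217 in DMSO and 76.3, 95.9 and 96.2 with plaB (log2 fold change -1.33, SE 0.131, adjusted p = 3.72e-07). NKX2-1 fell as well, from 1869, 1778 and 1913 to 616, 651 and 651 (log2 fold change -1.53, SE 0.0557, adjusted p = 5.95e-12). Both genes had groups far apart. The antisense signal was 11.4% to 13.1% of the sense signal in DMSO and 12.4% to 14.8% with plaB, and the change of this ratio did not pass the test (0.21 on the log2 scale, SE 0.108, adjusted p = 0.244). The bases that both share would hold 1.27 times the NKX2-1-AS1 signal.

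PPP3CB-AS1, whose start lies 272 bases from that of PPP3CB, the gene of a catalytic subunit of calcineurin, fell from 163, 167 and 189 to 87.6, 93.8 and 85.2 (log2 fold change -0.95, SE 0.132, adjusted p = 1.62e-05). PPP3CB fell by 0.36 on the log2 scale (SE 0.057, adjusted p = 5.95e-05). The antisense RNA fell by more, from 11.4% to 13.9% of the sense signal in DMSO to 7.48% to 8.61% with plaB (ratio change -0.59, SE 0.115, adjusted p = 0.0229). This call was lost without DMSO replicate 1, DMSO replicate 3, plaB replicate 1 or plaB replicate 3 (adjusted p = 0.0514 to 0.0703). Only 0.225% of its exonic bases are shared with PPP3CB, and these would hold 0.0246 of its signal. USP54, another gene on the opposite strand, would give 269 at its own density over the bases it shares with PPP3CB-AS1.

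RAB11B-AS1 and DHRS4-AS1 also start near their sense genes, at 331 and 1377 bases. RAB11B-AS1 fell from 101, 84.7 and 79.2 to 61.3, 37.7 and 51.1 (log2 fold change -0.83, SE 0.201, adjusted p = 0.0027), while RAB11B, the gene of a GTPase of recycling endosomes, was 2091 to 2160 in DMSO and 2011 to 2192 with plaB (log2 fold change -0.032, adjusted p = 0.619). The RAB11B samples overlapped between groups, and the bases shared with RAB11B would hold 1.32 times the RAB11B-AS1 signal. The ratio of RAB11B-AS1 to RAB11B changed by -0.79 (SE 0.174, adjusted p = 0.03). Its call was lost without any 1 of the DMSO samples or without plaB replicate 3 (adjusted p = 0.0658 to 0.0873). DHRS4-AS1 fell from 658, 768 and 655 to 411, 409 and 408 (log2 fold change -0.76, SE 0.0765, adjusted p = 4.88e-07), and DHRS4, the gene of a carbonyl reductase, fell from 336, 417 and 375 to 213, 206 and 192 (log2 fold change -0.88, SE 0.101, adjusted p = 2.05e-06). DHRS4-AS1 was 174% to 196% of the DHRS4 signal in DMSO and 193% to 212% with plaB, and the shared bases would hold 0.0585 of its signal.

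RNF213-AS1, which meets the end of RNF213, the gene of a large E3 ubiquitin ligase, was 88.6, 64.6 and 97.7 in DMSO and 46.9, 49.0 and 39.1 with plaB (log2 fold change -0.87, SE 0.2, adjusted p = 0.00186). RNF213 fell by 0.73 on the log2 scale (SE 0.0574, adjusted p = 2.72e-08). The shared bases would hold 1.54 times the antisense signal. The ratio of both genes did not pass the test.

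KIF9-AS1 overlaps the end of KIF9, the gene of a kinesin motor, and had the largest rise. It was 56.3, 72.6 and 66.2 in DMSO and 121, 144 and 123 with plaB (log2 fold change 0.99, SE 0.158, adjusted p = 7.43e-05). KIF9 itself was 140 to 156 in DMSO and 155 to 207 with plaB, and its groups overlapped (adjusted p = 0.152). KIF9-AS1 went from 36% to 47.7% of the KIF9 signal to 69.3% to 79.4% (ratio change 0.75, SE 0.138, adjusted p = 0.0184), a call lost without plaB replicate 1 or plaB replicate 3 (adjusted p = 0.0568 and 0.0609). The shared bases would hold 0.178 of its signal.

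BCAN-AS1 encloses BCAN, the gene of the brain proteoglycan brevican, and shares no exonic bases with it. It rose from 255, 221 and 237 to 422, 459 and 492 (log2 fold change 0.94, SE 0.092, adjusted p = 3.26e-07), so that all plaB samples lay above all DMSO samples. BCAN was low, at 8.43 to 14.1 in DMSO and 14.6 to 20.2 with plaB, and did not pass the test (adjusted p = 0.211). Per kilobase of exon, BCAN-AS1 was at 108 and BCAN at 2.99.

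DNMBP-AS1 lies inside DNMBP, the gene of an exchange factor for the GTPase CDC42. It was 44.4, 38.3 and 38.7 in DMSO and 71.9, 54.9 and 86.2 with plaB (log2 fold change 0.78, SE 0.209, adjusted p = 0.00558). DNMBP rose about as much, from 1900, 1768 and 1774 to 3389, 3224 and 3345 (log2 fold change 0.87, SE 0.0469, adjusted p = 2.89e-10). The antisense RNA was 1.7% to 2.58% of the sense gene in all 6 samples, and the shared bases would hold 4.28 times its signal.

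HERPUD2-AS1, LBX2-AS1 and PTOV1-AS2 rose by less. HERPUD2-AS1 was 207 to 282 in DMSO and 353 to 365 with plaB (log2 fold change 0.62, SE 0.109, adjusted p = 0.000174), and LBX2-AS1, antisense to a homeobox gene, was 185 to 205 and 289 to 297 (log2 fold change 0.57, SE 0.0966, adjusted p = 0.000119). The shared bases would hold 0.171 of the HERPUD2-AS1 signal and 0.153 of the LBX2-AS1 signal. Their sense genes HERPUD2 and LBX2 rose by 0.14 and 0.35 on the log2 scale (adjusted p = 0.042 and 0.0308), and these calls were lost without some samples. HERPUD2 lost its call without DMSO replicate 1, plaB replicate 1 or plaB replicate 2 (adjusted p = 0.0975 to 0.17), and LBX2 without any DMSO sample or plaB replicate 3 (adjusted p = 0.0533 to 0.111). PTOV1-AS2 was 52.9, 46.4 and 39.5 in DMSO and 56.5, 96.4 and 59.1 with plaB (log2 fold change 0.57, SE 0.224, adjusted p = 0.0456). Its value rests on plaB replicate 2, without which the log2 fold change was 0.33 and the adjusted p 0.267, and the call was also lost without DMSO replicate 2 or DMSO replicate 3 (adjusted p = 0.0622 and 0.144). The bases it shares with PTOV1 would hold 1.79 times its signal. PTOV1 fell by 0.17 on the log2 scale (SE 0.0539, adjusted p = 0.0161), a call lost without DMSO replicate 1, DMSO replicate 3 or plaB replicate 2 (adjusted p = 0.063 to 0.0813).

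Of the 190 sense genes, 185 were tested, of which 58 fell, 47 rose and 80 did not pass the test. The called share was 56.8%, beside 53.8% of genes with a mean of at least 50. The 5 sense genes under the filter were C2CD4D, CD27, FGD5, NUTM2B and OR2A1. In the 187 pairs with both genes tested, both were called in the same direction in 33 (17.6%), 21 lower and 12 higher, and in opposite directions in 9 (4.81%). In 25 pairs the antisense RNA alone was called, in 65 the sense gene alone, and in 55 neither. Among 1526 other overlapping pairs of genes on opposite strands with both means at least 50, 20.8% were called in the same direction and 8.98% in opposite directions.

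**Figure D3:**
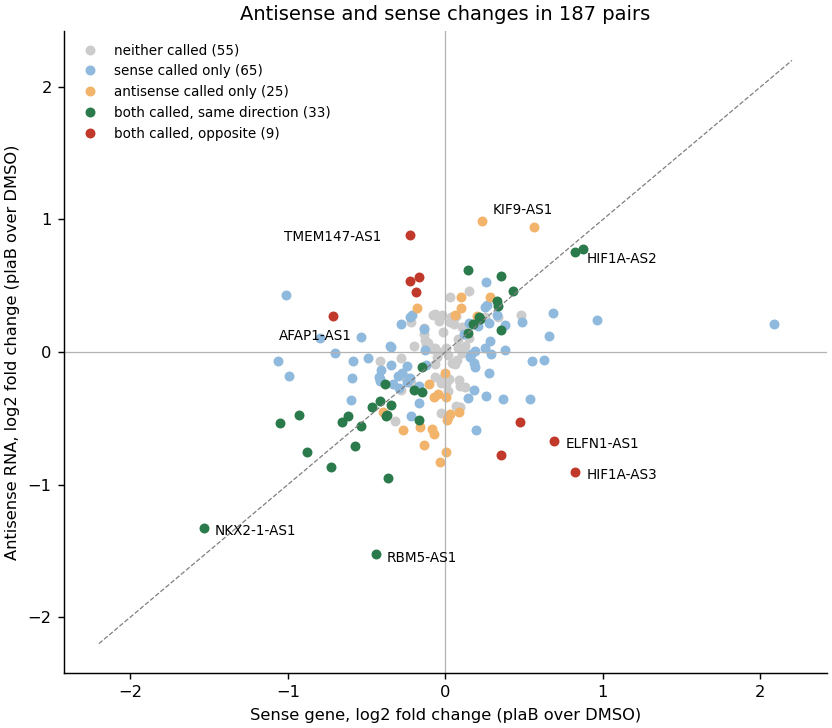
Log2 fold change (plaB over DMSO) of the antisense RNA (vertical) against that of its sense gene (horizontal) in the 187 pairs with both genes tested, coloured by which gene was called, with the dashed line at equal changes. NKX2-1-AS1 and RBM5-AS1 lie lowest, near to and below the line, and HIF1A-AS3 and ELFN1-AS1 lie where the antisense RNA is lower and the sense gene higher.

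Across the 187 pairs, the antisense and sense log2 fold changes had a Pearson r of 0.366 and a Spearman rho of 0.374, as a description, since both genes of a pair come from the same 6 libraries. The r was 0.134 over the 47 pairs with no shared exonic bases, 0.473 over the 63 whose shared bases would hold under 0.5 of the antisense signal and 0.392 over the 68 at 0.5 or more. By antisense level it was 0.202 under a mean of 100, 0.399 from 100 to 300 and 0.657 above 300. The differences between these values were not tested.

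The arrangement of the genes gave the counts below, beside 14.1% of all members higher and 21.9% lower. The shares were 24.9% and 28.9% of genes with a mean of at least 50, and 16.5% and 28.6% of the other lncRNAs. Of 70 pairs whose starts overlap, 19 antisense RNAs fell and 8 rose, and of 51 whose ends overlap, 8 fell and 11 rose. Of 36 antisense RNAs inside the sense gene, 7 fell and 6 rose, and all 6 called of the 22 that face away from the sense gene without overlap fell. Among the 60 with starts within 1000 bases, 16 fell and 3 rose, and among the 132 others, 26 fell and 24 rose. By shared bases, the called share was 28% of the 50 members with none, 41.5% of the 65 under 0.5 of the signal and 39.7% of the 68 at 0.5 or more. Members with 1 exon in the GENCODE canonical transcript were called in 45.5% of 22 cases, and those with 2 or more in 35.8% of 162. None of these differences between classes was tested.

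Whether the antisense RNA and its sense gene changed by different amounts was tested on the log2 ratio of both in each sample, with limma over 2746 pairs. The ratio changed in 32 of the 187 pairs (17.1%), lower in 19 and higher in 13, against 19.2% of all pairs tested and 24.4% of the other overlapping pairs. This count fell to 11 with a replicate block and to 17 to 25 when 1 sample was left out, and the edgeR quasi-likelihood test on recovered reads gave 46. Of the 9 pairs called in opposite directions, 8 had a called ratio, and all but PTOV1-AS2 are among them.

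At the HIF1A locus, HIF1A encodes the oxygen-regulated subunit of a transcription factor, and its antisense RNAs moved apart. HIF1A was 3770, 5462 and 3499 in DMSO and 7553, 7469 and 7099 with plaB (log2 fold change 0.82, SE 0.105, adjusted p = 6.32e-06). HIF1A-AS2, at chr14:61747039-61749089 across the end of HIF1A, rose with it, from 723, 1111 and 657 to 1329, 1451 and 1312 (log2 fold change 0.75, SE 0.127, adjusted p = 0.000117). In both genes DMSO replicate 2 was the highest DMSO sample, and without it the log2 fold changes were 1.02 for HIF1A and 0.98 for HIF1A-AS2. HIF1A-AS2 stayed at 17.6% to 20.3% of HIF1A in the 6 samples. No GENCODE exons were matched to HIF1A-AS2, so the signal of its shared bases is not given. The spans of both genes share the bases from 61747039 to 61748258, where HIF1A ends. HIF1A held 1128 per kilobase of exon. The mean HIF1A-AS2 signal of 1097 is for the whole gene and not per kilobase. The part of HIF1A reads in the HIF1A-AS2 signal and its rise was not tested.

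HIF1A-AS3, which spans chr14:61715558-61751097, was 106, 70.7 and 142 in DMSO and 56.3, 48.2 and 58.1 with plaB (log2 fold change -0.91, SE 0.216, adjusted p = 0.00231). Here DMSO replicate 2 was the lowest DMSO sample, and without it the log2 fold change was -1.17. All 3 plaB samples lay below all DMSO samples. Its ratio to HIF1A fell from 1.29% to 4.05% to 0.645% to 0.819% (ratio change -1.73, SE 0.418, adjusted p = 0.0393), a call that was lost when any sample other than DMSO replicate 2 was left out. The bases it shares with HIF1A, 9.42% of its exonic bases, would hold 4.21 times its signal at the HIF1A density.

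**Figure D4:**
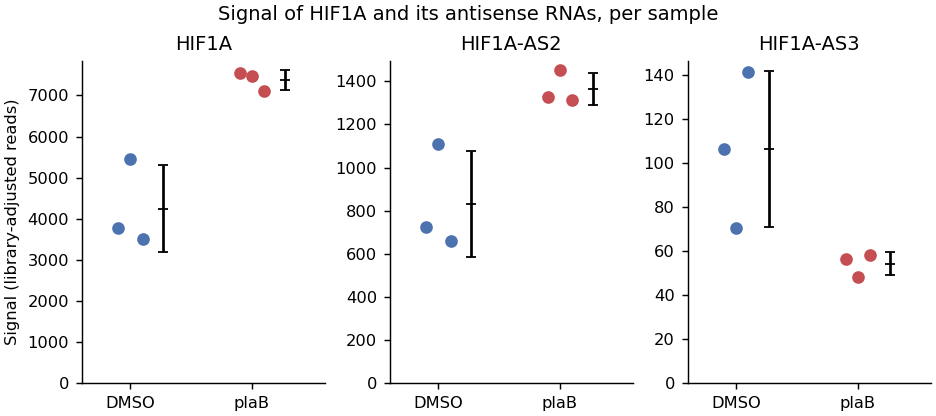
Signal (library-adjusted reads, linear axes from 0) of HIF1A, HIF1A-AS2 and HIF1A-AS3 in 3 DMSO and 3 plaB samples, 1 point for each sample, with the mean ± SD beside them. HIF1A and HIF1A-AS2 are higher in all plaB samples, and HIF1A-AS3 is lower in all plaB samples.

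ELFN1-AS1, which lies inside ELFN1, the gene of a synaptic leucine-rich repeat protein, without shared exonic bases, fell from 299, 328 and 263 to 192, 178 and 184 (log2 fold change -0.67, SE 0.106, adjusted p = 5.95e-05). ELFN1 rose from 274, 230 and 242 to 385, 433 and 387 (log2 fold change 0.69, SE 0.0947, adjusted p = 1.41e-05). The antisense RNA went from 109% to 142% of the sense signal to 41.2% to 49.8% (ratio change -1.37, SE 0.144, adjusted p = 0.00619). Per kilobase of exon, ELFN1-AS1 was at 243 and ELFN1 at 74.8 over all samples.

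PTPRG-AS1, which overlaps the end of PTPRG, the gene of a receptor protein tyrosine phosphatase, fell from 164, 158 and 155 to 105, 73.1 and 102 (log2 fold change -0.78, SE 0.152, adjusted p = 0.000443). PTPRG rose by 0.35 on the log2 scale (SE 0.0547, adjusted p = 5.1e-05). The ratio change was -1.13 (SE 0.142, adjusted p = 0.00782), with groups that did not overlap. The shared bases would hold 0.725 of the antisense signal.

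ZNF232-AS1, inside the zinc finger gene ZNF232, was 102, 142 and 106 in DMSO and 91.5, 88.4 and 62.2 with plaB (log2 fold change -0.53, SE 0.181, adjusted p = 0.023), while ZNF232 rose by 0.47 (SE 0.0774, adjusted p = 9.06e-05). The antisense call was lost without DMSO replicate 2 (-0.38, adjusted p = 0.107) and without plaB replicate 3 (-0.36, adjusted p = 0.127). The antisense RNA went from 23.6% to 32.8% of the sense signal to 11.3% to 15.2% (adjusted p of the ratio = 0.0153). The bases it shares with ZNF232 would hold 0.334 of its signal.

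TMEM147-AS1 starts 403 bases inside TMEM147, the gene of an endoplasmic reticulum membrane protein. It rose from 86.9, 71.6 and 67.9 to 130, 149 and 138 (log2 fold change 0.88, SE 0.15, adjusted p = 0.000126). TMEM147 was 1156 to 1370 in DMSO and 1003 to 1090 with plaB (log2 fold change -0.22, SE 0.0657, adjusted p = 0.00956), a call that was lost without plaB replicate 3 (adjusted p = 0.0561). The ratio went from 5.22% to 7.52% to 12% to 13.8% (ratio change 1.11, SE 0.158, adjusted p = 0.0103). The shared bases would hold 0.523 of the antisense signal at the TMEM147 density.

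AFAP1-AS1, which overlaps the end of AFAP1, the gene of an actin filament associated protein, was 2955, 2970 and 2974 in DMSO and 3547, 3577 and 3614 with plaB (log2 fold change 0.27, SE 0.0408, adjusted p = 3.84e-05). AFAP1 fell from 2305, 2171 and 2254 to 1412, 1339 and 1347 (log2 fold change -0.72, SE 0.0488, adjusted p = 4.79e-09). The replicates of both genes lay close together and the groups were well apart. The antisense RNA went from 128% to 137% of the AFAP1 signal to 251% to 268% (ratio change 0.99, SE 0.0745, adjusted p = 0.00356). The shared bases, 42.2% of its exonic bases, would hold 0.285 of its signal.

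LPP-AS2 rose by 0.54 while LPP, the gene of a LIM domain protein, fell by 0.23, and NAV2-AS6 rose by 0.45 while NAV2 fell by 0.18 (log2 scale). Their ratio changes were 0.76 (SE 0.112, adjusted p = 0.0106) and 0.64 (SE 0.0985, adjusted p = 0.0118). For LPP-AS2 the shared bases would hold 0.257 of its signal, and NAV2-AS6 shares no exonic bases with NAV2.

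**Figure D5:**
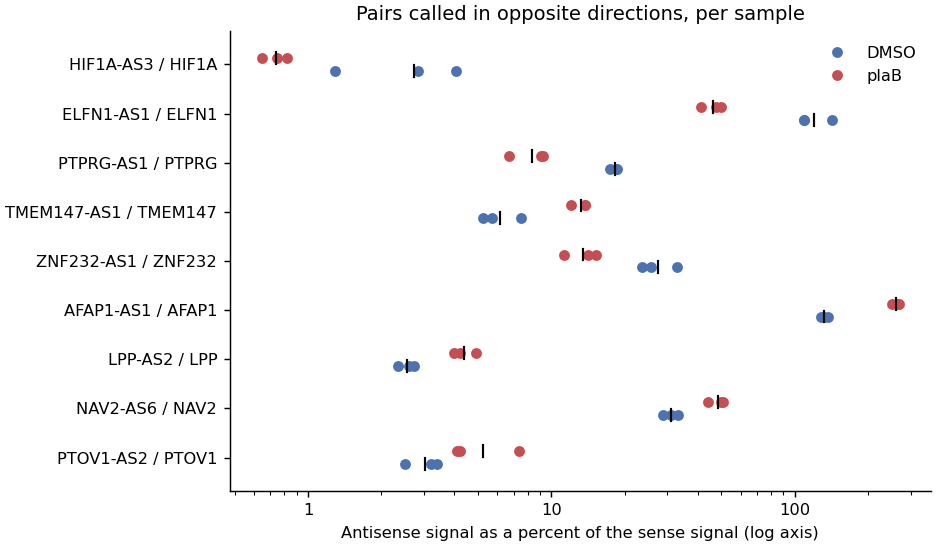
Antisense signal as a percent of the sense signal (horizontal, log axis) for the 9 pairs called in opposite directions, 1 point for each sample and a bar for each group mean. DMSO and plaB samples do not overlap in any of the 9 pairs, and 4 pairs move to lower and 5 to higher percentages with plaB. Choosing pairs with both genes called favours such a separation.

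In 12 of the 32 pairs with a called ratio, the sense gene alone was called, and 3 of these are described. CCDC18-AS1 was 44.1 to 56.9 in DMSO and 58.5 to 73.4 with plaB and did not pass the test (log2 fold change 0.43, adjusted p = 0.0819), while CCDC18 fell from a range of 950 to 1048 to one of 426 to 537 (log2 fold change -1.01, SE 0.0812, adjusted p = 3.47e-08). The ratio change was 1.44 (SE 0.157, adjusted p = 0.00628). NPPA-AS1 was 103 to 117 in DMSO and 116 to 140 with plaB (log2 fold change 0.21, adjusted p = 0.214), while NPPA, the natriuretic peptide gene, was 1.87 to 3.80 in DMSO and 11.8 to 15.6 with plaB (adjusted p = 0.00209), which is few reads. HSD17B1-AS1 was 741 to 864 in DMSO and 709 to 798 with plaB (adjusted p = 0.44), while HSD17B1, the gene of an estradiol-forming enzyme, fell from a range of 282 to 322 to one of 128 to 172 (log2 fold change -1.06, SE 0.12, adjusted p = 1.68e-06). CCDC18-AS1 shares no exonic bases with its sense gene, no GENCODE exons were matched for the NPPA-AS1 pair, and the shared bases would hold 0.229 of the HSD17B1-AS1 signal. The RNAs of these 3 pairs were named after their values were seen.

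Of the 5 antisense RNAs with the highest means, VIM-AS1 and MIF-AS1 fell, AFAP1-AS1 and FGD5-AS1 rose and OIP5-AS1 was not called. VIM-AS1 was 16280, 16060 and 17000 in DMSO and 15370, 15270 and 14870 with plaB (log2 fold change -0.12, SE 0.0393, adjusted p = 0.0219), a call that was lost without DMSO replicate 1, DMSO replicate 3, plaB replicate 1 or plaB replicate 3 (adjusted p = 0.0507 to 0.123). It stayed at 23.4% to 24.6% of the VIM signal in all 6 samples, and the shared bases would hold 0.516 of its signal. MIF-AS1, which encloses MIF, the gene of a cytokine that acts on macrophages, fell from 9666, 10210 and 9864 to 7710, 7331 and 7291 (log2 fold change -0.41, SE 0.0407, adjusted p = 3.55e-07), and MIF fell by 0.46 (SE 0.041, adjusted p = 1.12e-07). MIF-AS1 was 103% to 107% of MIF in every sample, and the shared bases would hold 0.902 of its signal.

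FGD5-AS1, which does not overlap its sense gene and whose FGD5 signal was low (1.01 to 5.19 in the 6 samples), was 3588 to 3940 in DMSO and 3989 to 4309 with plaB (log2 fold change 0.15, SE 0.0476, adjusted p = 0.0147). Its call was lost without DMSO replicate 1, DMSO replicate 3 or plaB replicate 3 (adjusted p = 0.0723, 0.0641 and 0.084). OIP5-AS1, the most abundant member that was not called, was 1988 to 2147 in DMSO and 1775 to 2097 with plaB (adjusted p = 0.185), while OIP5, the gene of a subunit that helps to deposit the centromeric histone, fell by 0.35 on the log2 scale (SE 0.0878, adjusted p = 0.00359). The bases it shares with OIP5 would hold 0.0818 of its signal. Without plaB replicate 3 OIP5-AS1 was called lower (-0.16, adjusted p = 0.0365).

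The genes that degrade antisense and other unstable noncoding RNAs were described from a list of 35. Of these, 15 rose, 11 fell and 9 did not pass the test (74.3% called, beside 47.6% of all genes and 53.8% of genes with a mean of at least 50), with a median log2 fold change of 0.077. The lowest mean in the list was 280, and the called share among genes of like level was not taken. The cap-binding subunit NCBP1 and the ARS2-binding zinc finger gene ZC3H18 rose, with log2 fold changes of 0.49 and 0.42. The exosome core genes were mixed. Of 9, EXOSC1 to EXOSC9, 5 rose, EXOSC7 by 0.47 and EXOSC2 by 0.40 among them, while EXOSC5 and EXOSC9 fell by 0.27 and 0.24 on the log2 scale and 2 did not pass the test. The helicase gene MTREX fell by 0.15, the non-canonical poly(A) polymerase gene TENT4A by 0.39 and the exonuclease genes XRN1 and XRN2 by 0.21 and 0.11 on the log2 scale. INTS11, the endonuclease subunit of Integrator, was the 1 gene of the list that changed at least 1.5-fold. It was 1450, 1423 and 1391 in DMSO and 853, 1091 and 905 with plaB (log2 fold change -0.59, SE 0.0733, adjusted p = 5e-06).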

How the data were processed

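The authors deposited 1 signal value per gene and sample, a read count adjusted for library size, together with their own log2 fold changes, p-values and q-values, which were not used. The submitters' processing notes name HISAT2, HTSeq 0.12.4, DESeq2 and hg19, the methods name hg38, and the positions of 99.8% of 35925 matched symbols overlapped GRCh38.p14. Strandedness of counting is not given in the sources used here. The values are edgeR's quantile-adjusted counts, and inverting the adjustment gave reads within 0.02 of whole numbers for 100% of values of 10 or more.

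Genes were filtered by edgeR's filterByExpr (4.0.16) and tested with limma 3.58.1 in R 4.3.3, with a variance trend, on log2(signal + 1), two-sided, with Benjamini-Hochberg adjustment. The pseudocount makes fold changes of low genes smaller. Ratios of pairs were tested likewise without the trend. Scripts were tested on simulated data. Alternatives were edgeR's quasi-likelihood test, DESeq2 1.42.0, other filters and pseudocounts, a replicate block and leaving out each sample. Exons were taken from GENCODE v44 and limited to the table's gene span. Named were the 8 largest called rises and falls with their sense genes, the 5 opposite pairs with the largest ratio change, the 5 highest means, 3 members on each side of the minimum mean, and turnover genes changed at least 1.5-fold. Other genes were named after their values were seen. The members and lists were chosen with earlier results of these data known.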

Additional observations from a re-analysis of the deposited data

How the results depend on the processing

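Of 192 antisense RNAs, 69 were called, and the count was 52 to 71 over the alternatives that keep all members, with no called member changing direction. It was 63 without DMSO replicate 2, and 51 of the 116 members with a mean of at least 100. Taking these 116 alone also gave 69 called sense genes (31 higher, 38 lower), 5 pairs called in opposite directions and 19 called ratios, because fewer pairs enter. The count of called ratios, 32 of 187 pairs, moved by more than 1.5 times. It was 17 to 25 with 1 sample left out, 46 with edgeR, 29 with DESeq2 and 47 in a test with a variance trend that was added after the data were seen. With no filter on low values limma called 0, with 6181 pairs tested in place of 2746. Before adjustment, 45 member pairs had a p below 0.05 in that fit, against 59 in the main fit. The cause of these differences was not tested.

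The replicate numbers did not pair the samples. The deviations of same-numbered samples from their group means had correlations of -0.0183, -0.0175 and 0.00261, and no sample correlated best with its own number. A fit with the replicate block called 64 antisense RNAs and 11 ratios.

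Leaving out 1 sample turned the sign of 4 values that were not called. Over these fits, the log2 fold change of DLGAP1-AS2 was -0.21 to 0.048 (above 0 without DMSO replicate 1) and that of HMGN3-AS1 was -0.025 to 0.20 (below 0 without DMSO replicate 3 or plaB replicate 2). The DNMBP-AS1 to DNMBP ratio changed by -0.24 to 0.054 (above 0 without plaB replicate 2) and the RNF213-AS1 to RNF213 ratio by -0.27 to 0.025 (above 0 without plaB replicate 3). Signals near the minimum mean of 50 limit the precision of the lower members.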
